A study of Mus musculus with 2 samples.

Results

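The 500 strongest CTCF peaks of newborn mouse liver are described here: where they lay, which genes they touched, which CTCF sequences they covered, how they were spaced and where each replicate placed them. They were chosen by signal alone. The peaks of the optimal list on chr1-19 were sorted by the signal the authors deposited, and the first 500 of 55759 were kept (0.897%). The whole list holds 57220 peaks that the authors kept by irreproducible discovery rate, a comparison of peak ranks between lists. The next 4500 peaks in the same order, down to place 5000, serve for comparison. CTCF binding was measured by ChIP-seq, which sequences DNA recovered with an antibody to a protein, in liver from B6NCrl mice at age 0 days. Pulverized livers from several dissections were pooled, the sex was not collected, and no mouse was treated. There is 1 group with 2 replicates, and both carry the same biosample and donor label, so differences between them may be technical. The livers were whole tissue, so hepatocytes, blood-forming cells and other cells of the newborn liver contribute together. Depth is unknown, because the peak lists give no read counts.

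CTCF is a DNA-binding protein with a row of zinc fingers that read a long, asymmetric motif, so each site has a direction. The ring-shaped cohesin complex slides along DNA and is halted at CTCF sites, and this is known to form loops and the borders of chromatin domains. CTCF is present in nearly all cell types, and many of its sites are bound in most tissues.

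The signal of the 500 peaks ran from 459.9 to 701.8 with a median of 494.8, against 313.5 to 459.9 and a median of 362.9 in the next 4500 peaks. These values made the choice and are a description. All 500 share the highest deposited −log10 q value, 5.03, which therefore does not order them. The share of list peaks at that value was 88.4%, so it does not mark out the 500 either. The last peaks inside lay in a UTR of Dand5 (459.98), in intergenic sequence near Arl4c (459.98) and at a start of 1700020L24Rik (459.93). The first outside lay in introns of Tbc1d2 (459.91) and Gne (459.85) and at a start of Chd9 (459.79). No gap in signal separates the 2 sides. With 1 group and members picked by signal, no test between sets of peaks was made, and shares and medians are set side by side with their intervals.

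The sequences below show a feature that many of the strongest peaks share, several distinct CTCF cores under 1 summit. The 14-base CTCF core, the conserved middle of the motif, was sought on both strands, and cores with at most 2 mismatches that do not overlap each other were counted within 150 bp of the summit. Each line gives 30 bases from the RefSeq sequence of GRCm38.p6, 5′ to 3′ on the strand of the core, with the core in capitals. Both cores are shown for 4 of the strongest peaks, in the order of their coordinates. At Gdf15 they lie on chr8:70629886-70629915 (minus strand) and chr8:70629932-70629961 (plus strand), and each has 1 mismatch. At Acbd4 they lie on chr11:103102807-103102836 and chr11:103102846-103102875, both on the plus strand, with 0 and 2 mismatches. At Fam129b they lie on chr2:32912588-32912617 (plus strand) and chr2:32912623-32912652 (minus strand), with 1 mismatch each. At Polr3gl they lie on chr3:96580337-96580366 and chr3:96580378-96580407, both on the minus strand, with 2 mismatches each.
Gdf15 left core: ggtagccgCCGGCAGGGGGCGCcgaagcgc
Gdf15 right core: gctgcgtgCCGCCAGAGGGCAGcatagcca
Acbd4 left core: gtgggtttCCACCAGGGGGCGCgaggactc
Acbd4 right core: cagtgtgtCCACCGGGAGGCGCtgcagccc
Fam129b left core: gtgagacgCCAGCAGGCGGCAGtatttgct
Fam129b right core: atacgcaaCCACTAGGTGTCGCcatctagc
Polr3gl left core: gccggagaCCACACGAGGGCAGcagagtgc
Polr3gl right core: cacggggaCCACAGGAGGGCAGcagaccgc

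For comparison, the next lines show the best core of a strong peak with a single distinct core, Enah (chr1:181888948-181888977, plus strand, 0 mismatches), and of 2 strong peaks whose best match within 50 bp of the summit has more than 2 mismatches. These 2 are near Gm22994 (chr4:129276701-129276730, minus strand, 3 mismatches) and near Dus3l (chr17:56763535-56763564, plus strand, 4 mismatches).
Enah: gacattagCCAGCAGAGGGCGCtgcctaac
Gm22994: tagcgcagCCTACAGGGGACGCcacacaga
Dus3l: catcttgcCCAGTAGGGACGGTagagagca

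At least 2 distinct cores lay under 157 of the 500 strongest peaks, 31.4% (95% interval 27.4 to 35.7), against 496 of the next 4500 peaks, 11.0% (10.1 to 11.97), and 6.38% of all peaks on chr1-19. This count was chosen after the data were seen. Shares carry exact Clopper-Pearson intervals, and medians carry intervals from order statistics. They cover counting error over peaks only, and peaks are not replicates. In windows moved 1 kb from the summit, 1 of the 500 (0.2%) and 0.756% of the next 4500 peaks held as many cores. At least 1 core lay in 11.0% and 10.9% of these moved windows, and this rate bears on a second core beside one at the summit. The 11.0% of the next 4500 peaks with at least 2 cores is an average over groups of 500 ranging from 18.6% to 5.8%. No conclusion is therefore drawn from setting it, or the 31.4% of the strongest, beside the rate of the moved windows. The part that matches like those of the moved windows play in these shares was not tested. With both cores limited to 1 mismatch, the shares around the summits were 10.6% and 1.67%. The 8 strongest peaks all held exactly 2 cores, and 54 of the first 100 held at least 2.

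Along the order of signal, in groups of 500, the share with at least 2 cores was 31.4%, 18.6%, 14.6%, 12.2% and 10.6% from the first group to the fifth, and 5.8% in peaks 4501 to 5000. The closeness of the best core to the motif did not follow the same order. Of the 500 strongest peaks, 134 had a perfect core no more than 50 bp from the summit, 26.8% (23.0 to 30.9), against 28.2% (26.9 to 29.6) of the next 4500 peaks, and these intervals overlap. A core with at most 2 mismatches was present at 460, 92.0% (89.3 to 94.2), against 90.1% (89.2 to 90.9). Over all peaks on chr1-19 the shares were 9.66% perfect and 71.7% with at most 2 mismatches.

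**Figure D1:**
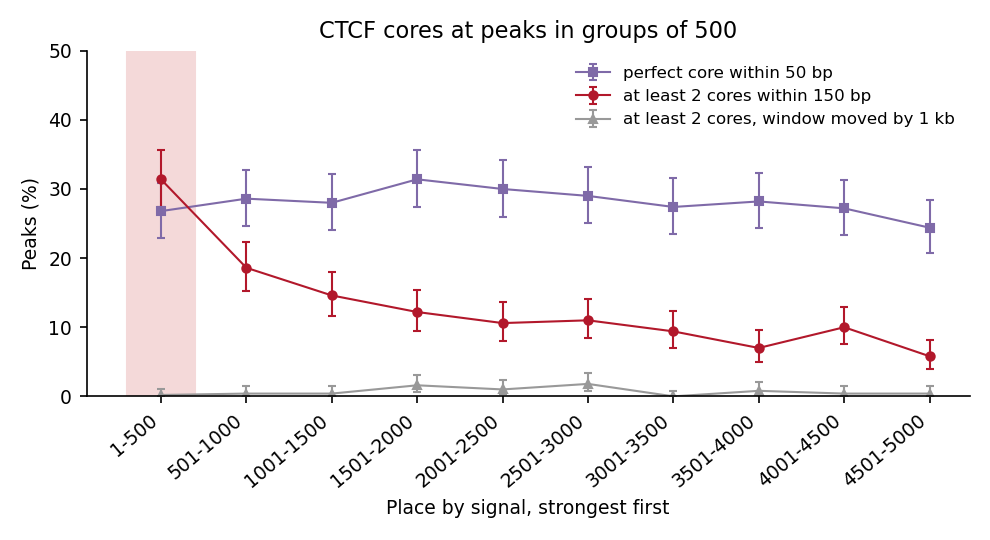
Share of peaks (y axis, %) with a perfect core within 50 bp of the summit, with at least 2 distinct cores within 150 bp, and with at least 2 cores in a window moved by 1 kb, in groups of 500 peaks by place (x axis, strongest first). Bars are exact 95% intervals over peaks; the 500 strongest are shaded, and their share with at least 2 cores, 31.4%, is above that of the other 9 groups, while the share with a perfect core stays between 24.4% and 31.4% in all 10 groups.

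Among peaks with exactly 2 cores, the cores lay closer together in the strongest peaks. Such a pair can include a match of the kind found in 11.0% and 10.9% of the moved windows. The part of such matches in the distances, and in the place of the summit between the cores, was not tested. In the 147 strongest peaks with exactly 2 cores, the starts of the cores lay a median of 55 bp apart (52 to 59) and ranged from 15 to 132 bp, against a median of 69 bp (65 to 75) and a range of 14 to 175 bp in the 462 such peaks among the next 4500 peaks. Distances of 30 to 69 bp made up 66.0% (57.7 to 73.6) of the pairs in the 500 strongest peaks and 38.7% (34.3 to 43.4) of those in the next 4500 peaks. This range was not set before the data were seen, and it spans the median of the strongest peaks, so these shares are a description. At Gdf15 the distance was 46 bp, at Acbd4 39 bp, at Fam129b 35 bp and at Polr3gl 41 bp. The direction of the cores showed no such difference. Both cores were on 1 strand in 56.5% (48.0 to 64.6) of pairs, against 55.4% (50.7 to 60.0). They faced each other in 25.2% (18.4 to 33.0), against 24.5% (20.6 to 28.6), and pointed apart in 18.4% (12.5 to 25.6), against 20.1% (16.6 to 24.1).

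**Figure D2:**
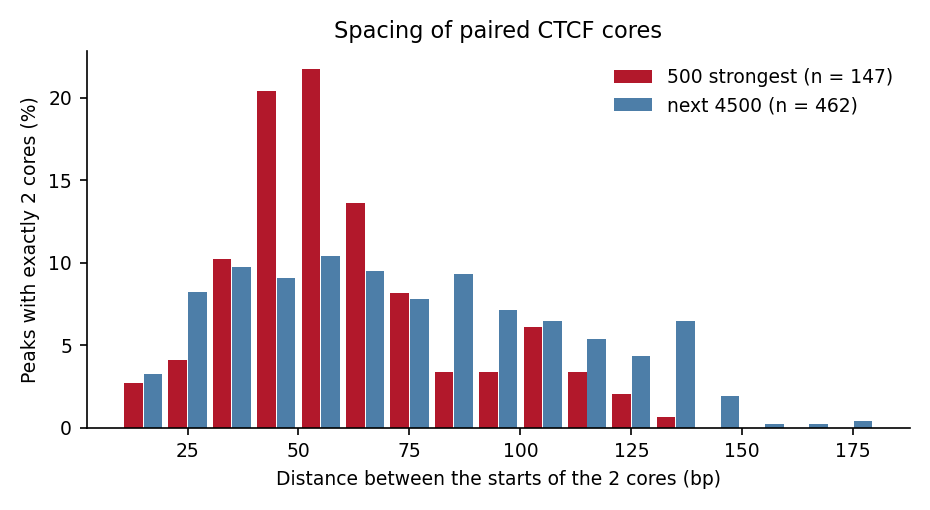
Distance between the starts of the 2 cores (x axis, bp, in steps of 10) in peaks with exactly 2 cores (y axis, % of such peaks), for 147 of the 500 strongest peaks and 462 of the next 4500 peaks. The bars of the strongest peaks crowd around their median of 55 bp, and those of the other peaks are spread more evenly.

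The summit sat between the centres of the 2 cores in 132 of these 147 peaks, 89.8% (83.7 to 94.2), against 68.8% (64.4 to 73.0) in the next 4500 peaks. Over all peaks with 1 best core, the centre of the core lay a median of 6.5 bp (5.5 to 7.5) from the summit, against 3.5 bp. Within 25 bp of the summit, the share of the 500 strongest peaks with a core was 80.0%, below the 88.3% of the next 4500 peaks. Width moved with the number of cores. Peaks with at least 2 cores had a median width of 354 bp (342 to 360) among the 500 strongest, those with 1 core 312 bp (308 to 315) and those with none 308 bp (301 to 343). In the next 4500 peaks these widths were 285, 272 and 270 bp. The part that peak width plays in the counts of cores was not tested, and the cores were counted in a window of fixed size. Over all numbers of cores, the 500 strongest peaks were 319.5 bp wide at the median (315 to 325), against 273 bp (272 to 274). The widest, 588 bp, lay at a start of Ints7, which encodes a subunit of the Integrator complex that processes RNA ends, and held 1 core.

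At least 3 cores lay under 10 of the 500 peaks, 2.0% (0.963 to 3.65), against 0.756% (0.524 to 1.05). The largest number, 6, was counted in an intron of Ctif, a gene for a factor of the first round of translation, under a peak 541 bp wide. It stood lower in replicate 1 (place 826, signal 221.9) than in replicate 2 (place 255, signal 243.9). An intergenic peak 39.8 kb from a start of Hepacam2, a cell adhesion gene, held 4 cores. It had a signal of 523.2 and places 143 and 149 in the replicates.

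In 40 of the 500 peaks the search within 50 bp found no core of at most 2 mismatches. The strongest of them was 1.20 kb from a start of Dus3l, a tRNA-modifying enzyme (signal 574.5, replicates 295.1 and 280.6). The others among the strongest 5 lay 6.26 kb from a start of Gm22994 (566.7), 79 bp from one of Rab2b, a small GTPase of membrane traffic (563.6), in a UTR of Rdh13, a mitochondrial retinol dehydrogenase (544.5), and 209 bp from a start of Gm31812 (540.6). Within 150 bp, 32 peaks (6.4%, 4.42 to 8.92) had none, against 8.78% (7.97 to 9.64) of the next 4500 peaks. At the Rdh13 peak 1 core lay between 50 and 150 bp from the summit.

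The letters of the core differed at a few places. Among peaks with 1 best core of at most 2 mismatches (397 of the 500 strongest and 3935 of the next 4500 peaks), G stood at core position 3, counted from 1 at the first base of the core, in 18.1%, against 9.43%, and A in 75.1%, against 83.0%. At the base just before the core, G stood in 56.7%, against 47.2%. The dinucleotide CG at core positions 12 and 13 was present in 51.4%, against 44.5%. Of 216 comparisons of a base at a position in the core and its flanks, 16 had intervals that did not overlap. The sequence around the summits was also richer in G and C. Within 250 bp the median GC share was 54.2% (53.5 to 54.9), against 50.5% (50.3 to 50.7), and it was higher both at promoters (58.5% against 55.3%) and elsewhere (52.1% against 49.3%). The ratio of observed to expected CpG, the dinucleotide that mammalian DNA methylation acts on, was 0.405 (0.373 to 0.438), against 0.289 (0.282 to 0.296). The part that base composition plays in the count of cores was not tested.

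Few summits lay in repeats. Of the strongest, 13 of 500, 2.6% (1.39 to 4.41), lay in sequence that the reference marks as repeat by lower-case letters, against 5.82% (5.16 to 6.55) of the next 4500 peaks and 22.4% of all peaks on chr1-19. Whether reads could be placed uniquely there is not given in the sources used here, and its part was not tested.

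Promoters, taken as 1 kb around any annotated transcript start, held 176 of the 500 strongest peaks, 35.2% (31.0 to 39.6), against 24.1% (22.8 to 25.4) of the next 4500 peaks. Introns held 131, 26.2% (22.4 to 30.3), against 32.5% (31.1 to 33.9), and intergenic sequence 159, 31.8% (27.7 to 36.1), against 37.4% (36.0 to 38.8). The rest lay in UTRs (13), noncoding exons (13) and coding exons (8), with shares of 2.6%, 2.6% and 1.6%, against 2.76%, 1.78% and 1.47%. The median distance to a start was 2.18 kb (1.82 to 2.91), against 4.42 kb (4.13 to 4.74). With the 5′ end of each gene as its only start, 27.4% were promoter peaks, against 17.0%. The number of protein-coding 5′ ends within 100 kb was 4 at the median in both sets.

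**Figure D3:**
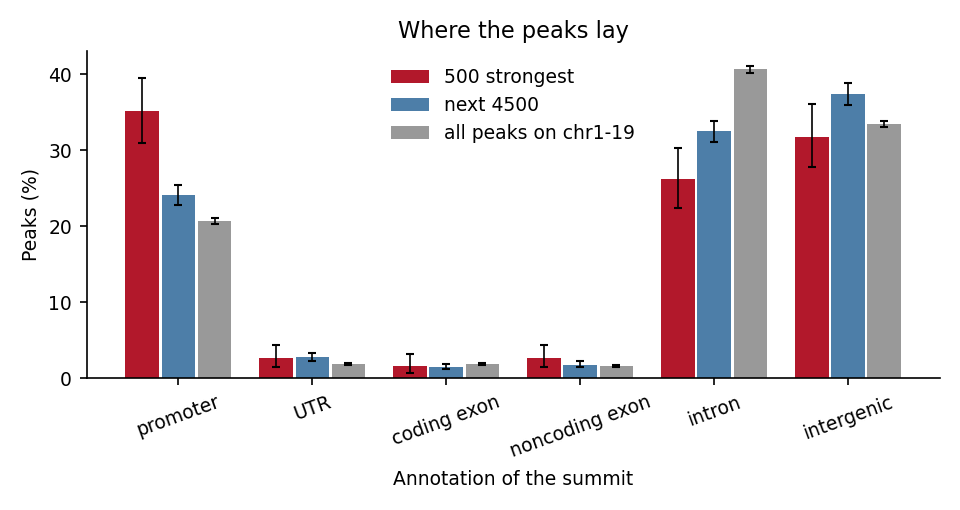
Share of peaks (y axis, %) by the annotation of the summit (x axis) for the 500 strongest peaks, the next 4500 peaks and all peaks on chr1-19. Bars start at 0 and error bars are exact 95% intervals over peaks; the 500 strongest have the highest promoter share, 35.2%, and the lowest intron share, 26.2%.

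Paired cores lay both at promoters and elsewhere. Outside promoters, 35.8% (30.6 to 41.3) of the 500 strongest peaks held at least 2 cores, against 10.4% (9.42 to 11.5) of the next 4500 peaks. At promoters the shares were 23.3% (17.3 to 30.2) and 12.9% (11.0 to 15.1). After Gdf15, the strongest examples outside promoters were in an intron of Fam129b, 13.5 kb from a start of Rbm19, a gene of ribosome assembly, and in an intron of Pink1, whose product is a mitochondrial kinase that marks damaged mitochondria. Their replicate signals were 352.6 and 316.7 at Fam129b, 333.8 and 324.8 at Rbm19, and 328.5 and 329.3 at Pink1. The strongest peak of all was in coding sequence of Gdf15, the gene of a hormone released under stress, with 367.7 and 338.8. The next in a coding exon, at the zinc finger gene Zfp219, had 295.2 and 277.5. The strongest in UTRs lay in Ptges2, a prostaglandin E synthase gene (310.5 and 288.3), and in C87436 (315.3 and 276.5), and each held 2 cores. In noncoding exons the first after Armc9 was in 4930578M01Rik (279.9 and 270.1).

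Promoter peaks stood upstream of the nearest start in most cases. The distances at single genes are given without their side. The strongest lay 169 bp from a start of Acbd4, which encodes an acyl-CoA binding protein (replicate signals 349.6 and 330.5), 219 bp from one of Polr3gl (343.9 and 319.5), 42 bp from one of Comtd1, a putative methyltransferase gene (332.8 and 316.8), 915 bp from one of Iqsec1, an activator of ARF GTPases (330.2 and 315.7), and 213 bp from one of Gins4 (336.0 and 309.3). The summit lay a median of 97 bp (79 to 119) from the nearest start in the 176 promoter peaks among the 500 strongest, against 195.5 bp (171 to 223) in 1084 of the next 4500 peaks. It was upstream in 76.7% (69.8 to 82.7), against 68.5% (65.6 to 71.2), and in the 100 bp upstream of the start in 42.6% (35.2 to 50.3), against 28.0% (25.4 to 30.8). The core pointed the way of the gene in 96 of 141 promoter peaks with 1 best core, 68.1% (59.7 to 75.7), against 57.4% (54.0 to 60.7), and these intervals overlap. For summits upstream of the start the share was 73.1% (63.5 to 81.3), against 62.5% (58.4 to 66.5), and for summits downstream 54.1% (36.9 to 70.5), against 47.0% (41.1 to 53.0). The ratio of observed to expected CpG was at least 0.6 at 68.2% (60.8 to 75.0) of these promoter peaks, against 41.1% (38.1 to 44.0).

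**Figure D4:**
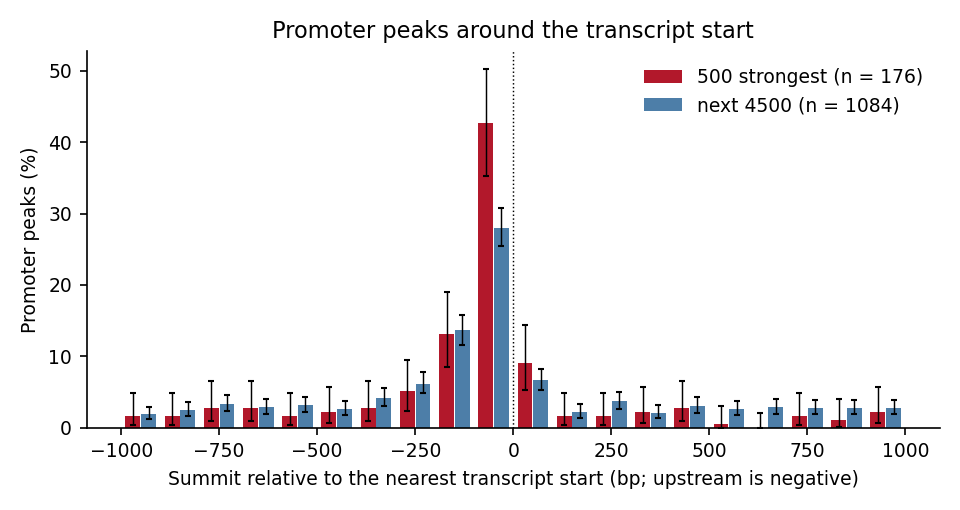
Position of the summit relative to the nearest transcript start (x axis, bp in steps of 100, negative values upstream) for promoter peaks (y axis, %) among the 500 strongest peaks and the next 4500 peaks. Error bars are exact 95% intervals over peaks; the 100 bp upstream of the start hold 42.6% of the promoter peaks among the strongest and 28.0% of the others.

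A start of 174 protein-coding genes lay within 1 kb of 1 of the 500 strongest peaks, 0.837% of the 20780 protein-coding genes on chr1-19, and 945 genes, 4.55%, had a start near 1 of the next 4500 peaks. Genes of ribosomes and RNA polymerases were among them. Of 82 genes for cytosolic ribosomal proteins, 5 (6.10%) had such a peak, at Rplp0 (514.0), Rps3a1 (507.3), Rpl26 (481.0), Rpl36 (480.4) and Rpl5 (460.6). Of 29 genes for RNA polymerase subunits, 2 had it, Polr3gl of polymerase III (660.4) and Polr2j of polymerase II (546.9). So did 2 of 77 genes for mitochondrial ribosomal proteins, Mrps33 (500.1) and Mrpl34 (489.9). Among 26 genes of DNA replication and the cell cycle it was Gins4, part of the replicative helicase (640.6). These counts are small, were not tested, and stand beside 0.837% of all protein-coding genes. For the next 4500 peaks the shares of these lists, in the same order, were 11.0%, 13.8%, 10.4% and 11.5%, against 4.55%. With any peak of the list they were 61.0%, 62.1%, 46.8% and 53.8%, against 37.4% of all protein-coding genes. Shares above that of all genes are therefore not particular to the 500 strongest peaks.

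Among other families, 4 of 383 zinc finger genes of the Zfp series (1.04%) had a start near 1 of the 500 peaks, led by Zfp398 (521.3) and Zfp786 (484.1). The 2 among 329 solute carriers (0.608%) were the zinc transporter Slc39a13 (557.9) and the amino acid transporter Slc36a1 (490.6). The count was 0 for the 25 hepatocyte, 18 erythroid, 18 endothelial and stellate, and 14 white blood cell genes. It was also 0 for 16 genes of CTCF and the cohesin machinery. It was 0 for 34 imprinted genes, 39 Hox genes, 56 clustered protocadherins, 80 cytochrome P450 genes and 1086 olfactory receptor genes. At the share of all genes, fewer than 1 gene would be found in each of these lists but the last, so the zeros say little of them. For olfactory receptors, 11 of 1086 (1.01%) had any peak of the list near a start, beside 7765 of all 20780 protein-coding genes (37.4%).

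Among places 11 to 20 were peaks 90 bp from a start of Med4, a subunit of the Mediator complex (replicate signals 312.8 and 317.0), 1.97 kb from one of Ndufa4l2 (327.3 and 303.5), in a noncoding exon of the ciliary gene Armc9 (315.2 and 304.2) and 9.32 kb from a start of the cation channel gene Trpv4 (311.6 and 301.4). Others lay 40.8 kb from a start of the glutaredoxin gene Glrx3 (311.5 and 310.9), 16.0 kb from one of Epm2aip1 (309.8 and 311.1), 16.5 kb from one of the zinc finger gene Zfp239 (317.3 and 299.7) and near the noncoding genes 4930509E16Rik (316.5 and 304.5) and Gm25888 (310.2 and 310.4). Of these 10 places, only the one at Med4 was a promoter peak. All 10 peaks lay between places 7 and 27 in both replicates, and 4 of them held 2 cores, at 4930509E16Rik, Gm25888, Epm2aip1 and Armc9.

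Some peaks lay deep within genes or far from any start. The peak in an intron of Rad51b, a gene of recombination repair, was 285.5 kb from the nearest start, and it was the only 1 of the 500 beyond 100 kb (0.2%, against 0.289% of the next 4500 peaks). Its replicate signals were 277.0 and 242.9, at places 99 and 263. The next farthest lay in introns of Gse1, 91.2 kb from a start (304.4 and 295.6), and of the sialyltransferase gene St3gal3, 51.1 kb from a start (240.9 and 225.3). The peak in Gse1 held a pair of cores 62 bp apart.

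The 500 strongest peaks had other peaks close by. The nearest other peak of the list lay a median of 4.29 kb away (3.74 to 4.88), against 4.75 kb (4.53 to 5.00) for the next 4500 peaks, and these intervals overlap. Its median signal was 77.3, against 89.7, beside 71.5 for all peaks on chr1-19. The nearest peak was itself among the first 5000 for 13.8% (10.9 to 17.1), against 12.5% (11.6 to 13.5). Counting only the first 5000 peaks, the nearest other lay a median of 39.1 kb away, against 53.6 kb. Over 50 kb from any other peak lay 1 of the 500, 0.2% (0.00506 to 1.11), against 1.47% (1.14 to 1.86). This peak was 18 bp from a start of Rab32, a small GTPase of organelle traffic, 149.9 kb from its neighbour, over a perfect core and a second core 97 bp away (replicate signals 238.4 and 228.3). The next most isolated were the peak near Hepacam2, at 48.0 kb, and 1 at a start of Ppp1r9a, an actin-binding protein of synapses, at 45.1 kb.

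Some of the strongest peaks were neighbours of one another, and the share expected from even placement was not computed. Another of the 500 lay within 100 kb of 103 peaks, 20.6% (17.1 to 24.4), and within 10 kb of 14, while 174 were over 1 Mb from the next. The closest lay 1.76 kb apart at Wdr18, a gene of ribosome assembly on chromosome 10 (79958163 to 79958453 and 79959922 to 79960232, signals 471.3 and 518.7). With a peak at the neighbouring gene Arid3a (536.1) they made up the only window of 100 kb with 3 of the 500 peaks. The next pairs lay 3.34 kb apart at A930015D03Rik on chromosome 17 (509.7 and 568.2) and 4.81 kb apart at Ninj2 on chromosome 6 (468.9 and 462.2). The zinc finger genes Zfp786 and Zfp398 held a pair 5.03 kb apart with cores pointing apart (484.1 and 521.3).

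Of 88 pairs of neighbouring peaks at most 200 kb apart among the 500 strongest, 64 had 1 best core on each side. The cores pointed the same way in 25 (39.1%, 27.1 to 52.1), toward each other in 19 (29.7%, 18.9 to 42.4) and apart in 20 (31.3%, 20.2 to 44.1). Among 2090 such pairs of the next 4500 peaks the shares were 44.7%, 26.2% and 29.1%, each inside those intervals.

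The 500 peaks were uneven over the chromosomes. Chromosome 11 held 53 of them, 10.6% (8.04 to 13.6), against 9.96% of the next 4500 peaks and 7.86% of all peaks, and its density was 0.434 per Mb. Chromosome 17 held 36, 7.2% (5.09 to 9.83), against 4.8% and 4.64%. Chromosome 7 held 28, 5.6% (3.75 to 7.99), against 8.42% and 6.72%. The smallest number, 13, was on chromosome 13, 2.6% (1.39 to 4.41), against 3.4% and 4.03%. Its density was 0.108 per Mb, and the lowest density was on chromosome 3.

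Both replicates held all 500 peaks, with summits a median of 1 bp from the optimal summit in replicate 1 and 2 bp in replicate 2. This is not particular to the 500. Replicate 1 held 99.98% of the next 4500 peaks and replicate 2 held 100%, with summits a median of 2 and 1 bp away. Over all peaks on chr1-19 the shares were 98.5% and 98.3%. The optimal list was made from the replicate lists and their pooled list, and its signal equals the pooled signal at all 500 peaks, so places in the replicates are no independent check. Replicate 1 placed 452 of the 500 among its own first 500 (90.4%, 87.5 to 92.8), and replicate 2 placed 434 (86.8%, 83.5 to 89.6). Of the next 4500 peaks, 48 and 66 stood among those first 500. Both replicates placed 389 of the 500 among their first 500, and 3 were in neither. The first 100 were within the first 171 of each replicate. The median signal was 255.1 in replicate 1 and 244.6 in replicate 2, against 185.1 and 178.5 for the next 4500 peaks. The median ratio of replicate 2 to replicate 1 was 0.961 in the 500 strongest peaks and 0.965 in the others.

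Places within the 500 were less alike. The place of a peak differed between the replicates by a median of 79, and by more than 200 for 104 peaks. Spearman's rho of the 2 signals was 0.670 across the 500 peaks, which share both libraries and were picked from a narrow range of signal. The largest gap in favour of replicate 2 was at a start of Pafah2, which encodes a platelet-activating factor hydrolase, with place 1036 and signal 216.0 in replicate 1, against place 213 and signal 248.8 in replicate 2. A promoter peak at Gm38102 had places 780 and 114, and the peak in Ctif was the third. In the other direction, a peak at a start of Exd1, a gene of the germline piRNA pathway, had place 270 and signal 252.3 in replicate 1, against place 1012 and signal 209.4 in replicate 2. Peaks in an intron of Samm50, a gene of mitochondrial outer membrane assembly, and near the small GTPase gene Arl4c had places 295 and 947, and 301 and 943.

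**Figure D5:**
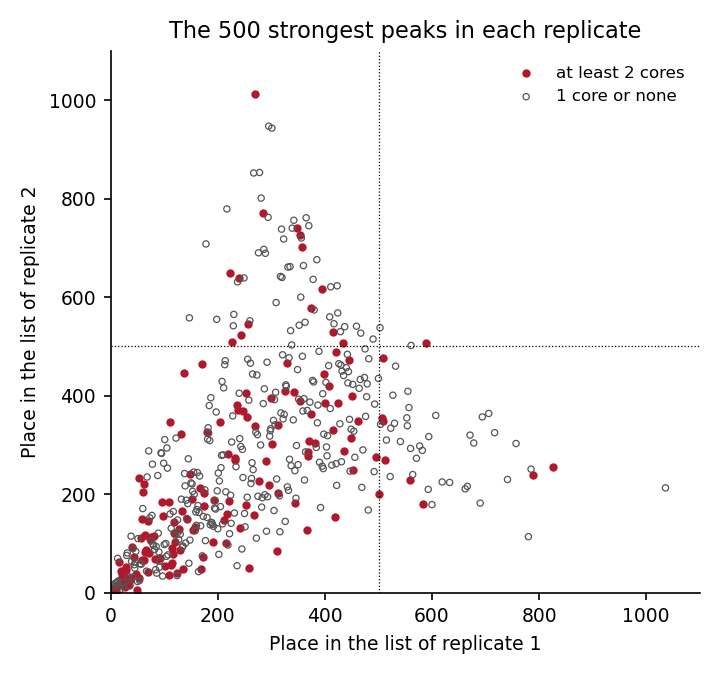
Place of each of the 500 strongest peaks in the list of replicate 1 (x axis) and of replicate 2 (y axis), with filled points for peaks with at least 2 cores and open points for the others. Dotted lines mark place 500; 389 peaks lie below and left of both lines, 3 lie beyond both, and no peak stands below place 1036.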

How the data were processed

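CTCF ChIP-seq peaks of newborn mouse liver, 2 replicates, were taken from 5 peak lists deposited by the authors on mm10: 1 per replicate, 1 pooled, and a conservative and an optimal list made from these by irreproducible discovery rate, per the labels and the text deposited with them. The sources used here name no aligner, peak caller, threshold or depth. The signal and the −log10 q value are as the authors deposited them, on a scale for signal that is not stated. Replicate lists end at 300000 peaks. Summits were annotated with GENCODE M21 and sequence came from RefSeq GRCm38.p6, the assembly that mm10 names. Cores were sought within 50 bp of the summit, and replicate peaks were matched by summits within 100 bp. Promoter genes are those with a start within 1 kb, and a peak is named for the gene of its nearest start. Regions in the text were named by a rule: the 20 strongest, those at the border, the extremes of place, distance and width, the strongest of each annotation class, gene list and of those without a core. One region that the rule names is not reported here. The peaks, gene lists and rule were chosen with earlier results of these data known. The count of paired cores and the range of their distances were chosen after the data were seen. No test between groups was possible with 1 group. Alternatives were another list, each replicate alone, other numbers of peaks, distances, windows and mismatches. Scripts in Python 3.11.15 with NumPy 2.4.6, pandas 2.3.3 and SciPy 1.17.1 were tested on simulated sequences.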

Additional observations from a re-analysis of the deposited data

How the results depend on the processing

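Of 129 recomputed values, 107 stayed within the interval of the value reported (or, for gene counts, within 1.5 times it). The conservative list and the ranking by the pooled list gave the same 500 peaks. Nearly all of their values were therefore fixed in advance and add nothing to this count. With the first 250 peaks, the median signal was 529.7, 8.0% had another of the set within 100 kb, 94 protein-coding genes had a start nearby and 38.8% of peaks held at least 2 cores. With the first 1000 these were 459.9, 31.1%, 322 and 25%, and the GC share was 53.3%. Promoter peaks were 29.4% within 500 bp of a start, 63.0% within 5 kb and 27.4% at 5′ ends only, always above the next 4500 peaks (17.4%, 52.9% and 17.0%). A core was present at 68.2% with 1 mismatch allowed and 98.4% with 3, where the next 4500 peaks had 68.8% and 98.4%, and at 80.0% within 25 bp, so the small lead over those peaks depends on the search. Within 100 bp the GC share was 57.7%. Another of the 500 lay within 50 kb of 12.6% and within 200 kb of 30.8%. At least 2 cores of at most 1 mismatch lay at 10.6%, and at least 2 cores at 35.8% outside promoters. When peaks were ranked by 1 replicate alone, 77.8% of the first 500 were among the first 500 of the other replicate, for either replicate left out. The share with at least 2 cores was above that of the next 4500 peaks in all 11 settings. These settings reuse the same peaks, some without any change of the 500, so they are not independent of one another. No paired analysis was possible because there is 1 group. The lists give no read counts, so the error of a single signal is unknown.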
